A study of Mus musculus with 4 samples.

Results

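The 36 genes described here encode the enzymes of glycolysis and of glycogen metabolism and some of their regulators. They were taken by gene name from a set list, which was chosen with earlier results of these data known. All 36 were found among the 22252 gene names measured in gastrocnemius muscle, a fast calf muscle, of 4 groups of mice. All mice were C57BL/6J males, 7 weeks old, and all carried *Nr3c1*, the gene of the glucocorticoid receptor (GR), with exon 3 flanked by loxP sites on both alleles (GR Flox+/+). Lean GRf/f mice were Lep+/+ and Cre-/-, and lean GRmKO mice were Lep+/+ and carried an Acta1-Cre transgene (Cre+/-). The ob/ob GRf/f mice were Lepob/ob, without leptin and therefore obese, and Cre-/-, and the ob/ob GRmKO mice were Lepob/ob and Cre+/-. The Acta1 promoter drives Cre in skeletal muscle fibres, so the other cells of the muscle keep the receptor, and no group carried Cre without the floxed alleles. Each group was 1 RNA-seq library made from the pooled RNA of 3 mice. No difference below therefore has a replicate check, and none can be set against the spread between mice.

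Glycolysis splits glucose into pyruvate in the cytosol, and in a fast muscle much of this pyruvate is reduced to lactate during hard work. Glycogen is the glucose store of the fibre. It is built by glycogen synthase and the branching enzyme and broken down by glycogen phosphorylase, and hormones and contraction set the balance through phosphorylation of these enzymes. Glucocorticoids are known to raise blood glucose and to act on glucose uptake and glycogen in muscle, and the receptor is a transcription factor.

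*Nr3c1* stood at 125 CPM (counts scaled to the same total in every library) in lean GRf/f, 67.0 in lean GRmKO, 102 in ob/ob GRf/f and 39.1 in ob/ob GRmKO muscle. It was lower in the GRmKO library on both backgrounds, and the value counts reads from any part of the transcript, not loss of exon 3. The libraries held 20757146, 19897754, 20959781 and 20949729 expected counts (read counts estimated by Salmon) in that order, which is the order of groups in each list of 4 values below. The muscle markers *Ckm*, *Acta1*, *Mb* and *Ttn* summed to 58201, 56311, 61876 and 62596 CPM. Summed over 8 slow-fibre markers the level was 488, 650.5, 1086 and 1554 CPM, and over *Myh2* and *Myh1* of type IIa and IIx fibres 1568, 1334, 2974 and 3205. Over 7 fast-fibre markers, among them *Myh4* of type IIb fibres, it was 83209.5, 79376, 92349 and 102771. These 7 are not all particular to type IIb fibres. The 6 adipocyte markers summed to 982, 639, 503 and 312 CPM, 5 erythroid markers to 2228, 2126, 970.3 and 872, 4 macrophage markers to 312, 413, 204 and 153 and 4 fibroblast markers to 3901, 4294, 6915 and 3987. No marker of these lists was at 0 in any library. In bulk muscle, fewer cells of a type and less RNA per cell cannot be told apart.

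The lean GRf/f library stood apart in genes of male germ cells. The sperm forms of glycolytic enzymes *Gapdhs*, *Ldhc* and *Pgk2* had 123, 137 and 39 counts there and 0 in the other 3 libraries, and *Ldhal6b* had 46, 0, 1 and 2. The 6 germ cell markers *Prm1*, *Prm2*, *Tnp1*, *Tnp2*, *Odf1* and *Smcp*, chosen after these values were seen, summed to 59.96 CPM in that library and to 0.151, 0 and 0.0963 CPM in the others. None of these genes is among the 36. This library is the reference for GRmKO in lean muscle and for obesity in GRf/f muscle, and its part in those values was not tested. The comparison of genotypes in ob/ob muscle and that of obesity in GRmKO muscle do not use it. *Ppp1r3c* (-1.10), *Ppp1r3d* (0.86) and *Aldoa* (-0.95, all log2) passed 1.5-fold in the first of these. In the second, *Gbe1* (0.61) and *Ppp1r3c* (0.89) were higher past 1.5-fold, and *Pfkp* (-0.59) and *Pygb* (-0.72) were lower.

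Each gene name in the deposited tables carries 1 Ensembl transcript. Names with several annotated transcripts fell under 1 count in a single library more often than names with 1. Of 8760 gene names with more than 1 annotated transcript, 100 (1.14%) had under 1 count in a single library and at least 50 in the other 3, against 2 of 2468 names with 1 annotated transcript (0.0810%). The study's methods describe values summed to genes, and which of these holds for a given row was not settled here. A value below may be that of the listed transcript and not of the whole gene. This question does not arise for the 7 genes with 1 annotated transcript, *Pgam1*, *Pgam2*, *Pygb*, *Ppp1r3a*, *Ppp1r3c*, *Ppp1r3d* and *Fbp2*, and it does for the other 29.

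The 36 genes together took 5.01% of all counts in lean GRf/f, 4.59% in lean GRmKO, 4.91% in ob/ob GRf/f and 4.30% in ob/ob GRmKO muscle, and 9 of them were among the 50 most abundant gene names. Most of the drop in the GRmKO libraries lay in 1 gene. *Aldoa* was 8916, 6066, 9207 and 4775 CPM, while the summed level of all 36 was 50096, 45888, 49076 and 43002 CPM. Every gene was above 0 in every library. *Aldoc*, the brain aldolase, had 9, 6, 10 and 7 counts and was too low for any comparison.

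**Figure D1:**
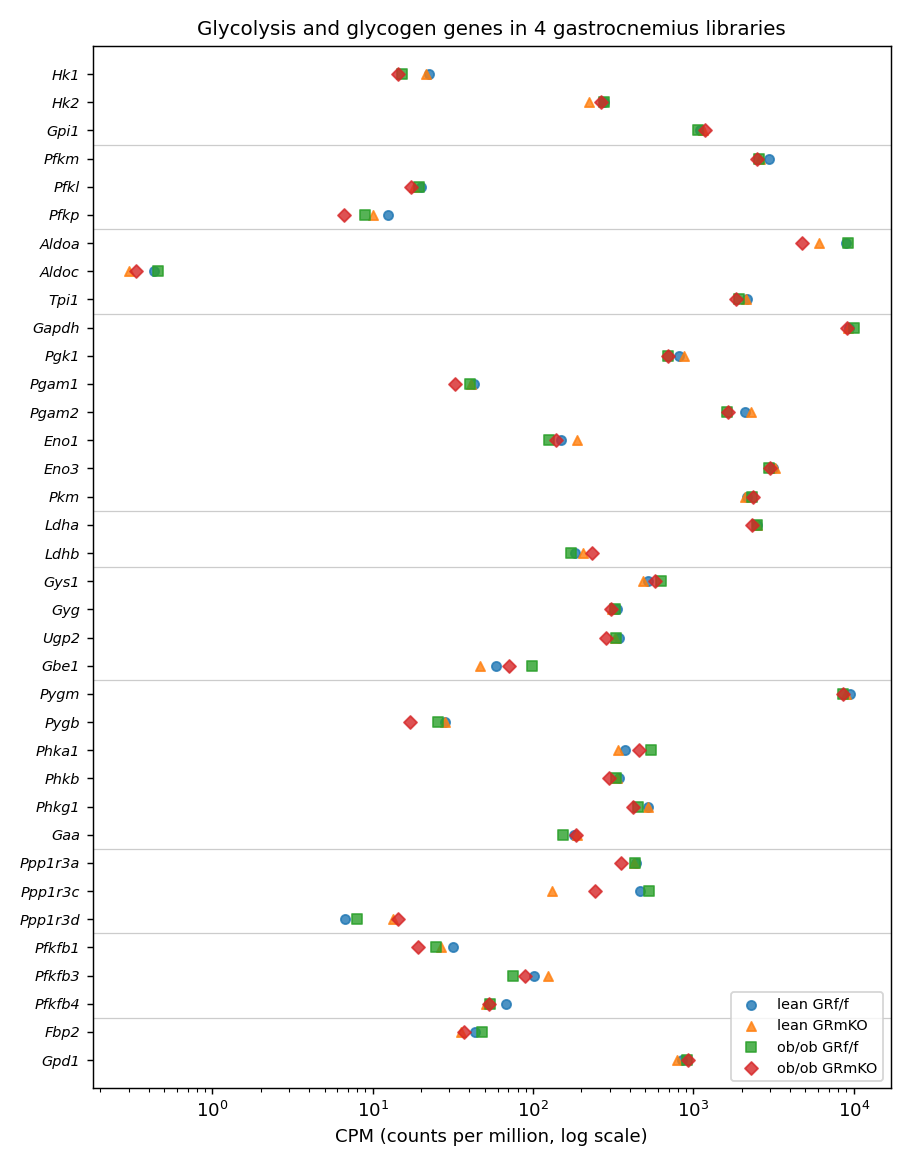
CPM of the 36 genes on a log axis, with 1 point for each of the 4 libraries of pooled RNA and lines between groups of genes with like roles. The points of most genes nearly coincide, while *Ppp1r3c* runs from 132 to 526 CPM and *Aldoa* from 4775 to 9207 CPM.

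The levels per length were highest for the forms known from muscle. Per kilobase of the listed transcript, the highest values were those of *Gapdh* (glyceraldehyde-3-phosphate dehydrogenase, 6381 to 7093 CPM per kb over the 4 libraries), *Aldoa* (aldolase, 3270.2 to 6306), *Pygm* (muscle glycogen phosphorylase, 2967 to 3313), *Pgam2* (muscle phosphoglycerate mutase, 1922 to 2705) and *Eno3* (muscle enolase, 2047 to 2205). At the entry of the pathway, *Hk2*, the insulin-responsive hexokinase of muscle, lay at 40.5 to 50.6 CPM per kb and *Hk1*, the hexokinase of most tissues, at 3.94 to 6.16. The level of *Hk2* over *Hk1* was 8.11, 6.92, 12.1 and 12.2 per length, higher in both ob/ob libraries than in both lean ones. The muscle phosphofructokinase *Pfkm* exceeded the liver form *Pfkl* 196, 193, 176 and 190.3 times per length. It exceeded the platelet form *Pfkp* 227, 249, 276 and 358 times.

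The order of the forms within each pair was the same in all 4 libraries. *Pgam2* over *Pgam1* was 103, 117, 84.8 and 107 per length, and *Eno3* over *Eno1*, the enolase of most tissues, was 29.4, 23.7, 33.04 and 30.2. *Ldha*, which encodes the muscle subunit of lactate dehydrogenase, over *Ldhb*, the heart subunit, was 11.3, 10.03, 11.8 and 8.21 per length, with the lowest ratio in ob/ob GRmKO muscle. *Pygm* over *Pygb*, the brain phosphorylase, was 457, 433, 454 and 682, with the highest ratio in that same library.

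**Figure D2:**
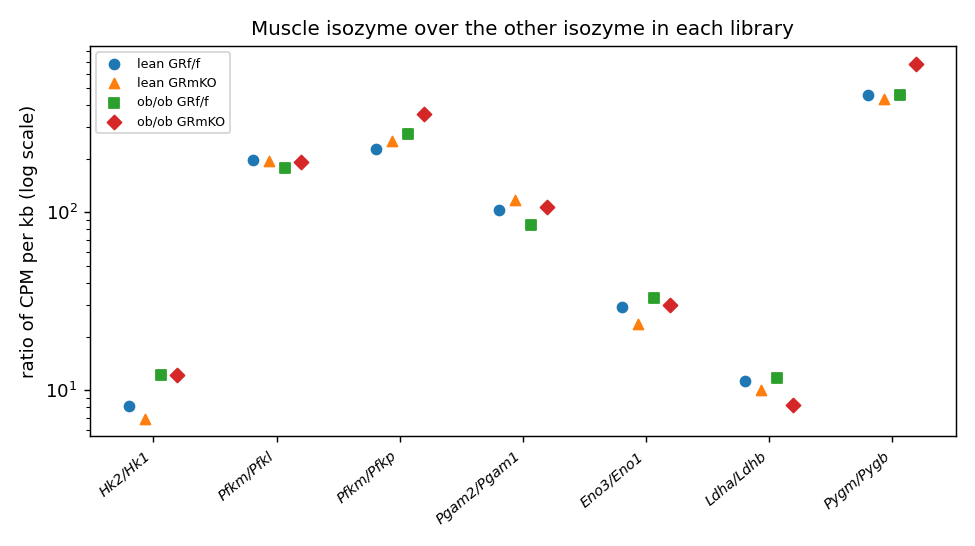
Ratio of the listed transcripts' CPM per kilobase for the muscle form of an enzyme over another form of it, on a log axis, with 1 point per library. Every ratio lies above 1. *Pygm* over *Pygb* is highest in ob/ob GRmKO muscle, and *Hk2* over *Hk1* is higher in both ob/ob libraries than in both lean libraries.

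GRmKO against GRf/f muscle asks what differs when the muscle fibre lacks GR. The genes past 1.5-fold were *Aldoa* and 2 of the 3 listed regulatory subunits that bring protein phosphatase 1 to glycogen. *Ppp1r3c*, which encodes protein targeting to glycogen, was 3.53-fold lower in lean GRmKO and 2.15-fold lower in ob/ob GRmKO than in the GRf/f muscle of the same background. *Ppp1r3d*, a less abundant subunit, was 1.98-fold and 1.81-fold higher. *Aldoa* was 1.93-fold lower in ob/ob GRmKO muscle. A gene counts here as higher or lower when its CPM differed at least 1.5-fold, provided that no library was at 0 and that 1 of the pair held 50 counts or more. This left 35 of the 36 genes.

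By this rule 1 gene was higher (*Ppp1r3d*) and 1 lower (*Ppp1r3c*) in lean GRmKO muscle, or 2.86% each of the 35, against 5.59% higher and 3.93% lower of all 11438 genes compared. In ob/ob GRmKO muscle 1 was higher (*Ppp1r3d*) and 2 were lower (*Aldoa* and *Ppp1r3c*), or 2.86% and 5.71%, against 4.91% higher and 8.42% lower of 11212 genes. These shares rest on 1 or 2 genes each, and for lower genes their order against the background turned with the set of genes compared. Of the 2091 genes with no library under 1000 counts, 0.717% were higher and 1.48% lower in lean GRmKO muscle and 1.96% higher and 3.40% lower in ob/ob GRmKO muscle. Among the 26 listed genes at that depth, 0 were higher and 1 was lower (3.85%) in lean muscle, and 0 were higher and 2 lower (7.69%) in ob/ob muscle, both shares of lower genes being above the background there. With TMM factors, which centre the bulk of the genes, the shares of all genes were 4.64% higher and 4.58% lower in lean and 5.58% and 7.21% in ob/ob muscle, and *Aldoa* joined *Ppp1r3c* as lower in lean muscle, which made 2 of the 35 (5.71%).

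The median log2 difference of the 35 genes was -0.07 in lean and -0.08 in ob/ob muscle, with 25 and 24 of them below 0. The median of the 14206 genes above 0 in all libraries was 0.05 and -0.04. Relative to that median gene, the 35 genes had a median of -0.11 in lean and -0.05 in ob/ob muscle. Other markers moved between the same libraries. Of the 8 slow-fibre markers 3 were higher by the rule in lean and 4 in ob/ob GRmKO muscle, and of the 6 adipocyte markers 5 and 4 were lower. Of the 4 fibroblast and the 4 macrophage markers none was past the rule in lean muscle, and 3 and 2 were lower in ob/ob GRmKO muscle. Their part in the differences below was not tested.

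*Ppp1r3c* lies on chr19:36731731-36736653 of GRCm38 on the minus strand and has 1 annotated transcript, so its value is that of the gene. It had 9674, 2625, 11022 and 5124 expected counts, or 466 CPM in lean GRf/f (95% Wilson interval 457 to 475), 132 in lean GRmKO (127 to 137), 526 in ob/ob GRf/f (516 to 536) and 245 in ob/ob GRmKO muscle (238 to 251). Both GRmKO libraries were below both GRf/f libraries. The log2 difference was -1.82 in lean muscle (95% counting interval -1.88 to -1.76) and -1.10 in ob/ob muscle (-1.15 to -1.06). These intervals, like all others here, cover counting error only. The log2 difference was 0.72 higher in ob/ob than in lean muscle, and this was not tested.

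*Ppp1r3d*, on chr2:178411206-178414472 (minus strand, 1 annotated transcript), had 139, 264, 167 and 302 expected counts. It stood at 6.71 CPM in lean GRf/f (5.67 to 7.91), 13.3 in lean GRmKO (11.8 to 14.97), 7.96 in ob/ob GRf/f (6.85 to 9.27) and 14.4 in ob/ob GRmKO muscle (12.9 to 16.1). Both GRmKO libraries were above both GRf/f libraries, the opposite order to *Ppp1r3c*. The log2 difference between genotypes was 0.98 (0.68 to 1.29) in lean and 0.86 (0.58 to 1.14) in ob/ob muscle. The third subunit, *Ppp1r3a*, encodes the muscle form, which ties phosphatase 1 to glycogen and the sarcoplasmic reticulum. It was 440.2, 426, 431 and 352 CPM, and its log2 difference was -0.05 (-0.09 to -0.0037) in lean and -0.29 (-0.34 to -0.25) in ob/ob muscle, short of 1.5-fold. With *Ppp1r3c* lower, the summed level of the 3 subunits was 913, 571, 965 and 611 CPM. Per length, *Ppp1r3c* lay at 48.4 to 193 CPM per kb, *Ppp1r3a* at 50.5 to 63.2 and *Ppp1r3d* at 2.05 to 4.42. *Ppp1r3c* was above *Ppp1r3a* in every library except lean GRmKO.

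*Ppp1r3c* and *Ppp1r3d* moved in opposite directions between the genotypes, so the bases just before their starts are shown, from RefSeq on GRCm38.p6, 5′ to 3′ on the strand of the gene. Capitals mark matches, on either strand, to ACGTG (the core letters of a hypoxia response element) or TGACG (letters of a cAMP response element). AGAACA, letters of a glucocorticoid response element, was searched too. The first window is chr19:36736654-36736854 (minus strand) and the second chr2:178414473-178414713 (minus strand).
Ppp1r3c: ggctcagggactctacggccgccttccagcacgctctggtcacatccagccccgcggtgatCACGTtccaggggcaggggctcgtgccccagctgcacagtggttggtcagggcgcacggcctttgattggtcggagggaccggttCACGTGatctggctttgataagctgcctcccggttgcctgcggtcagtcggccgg
Ppp1r3d: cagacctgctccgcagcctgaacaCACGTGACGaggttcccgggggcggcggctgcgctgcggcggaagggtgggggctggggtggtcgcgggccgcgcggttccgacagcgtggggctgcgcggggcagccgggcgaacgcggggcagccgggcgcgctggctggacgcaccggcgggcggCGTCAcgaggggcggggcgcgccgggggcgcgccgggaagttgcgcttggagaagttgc
The window of *Ppp1r3c* holds 3 matches to ACGTG, of which a pair overlaps as the palindrome CACGTG, and 0 to the other motifs. Windows of its length hold at least 1 ACGTG in 13% of 32851 RefSeq promoters. The window of *Ppp1r3d* holds 2 matches to ACGTG, which overlap each other, and 2 to TGACG, 1 of which overlaps them, and windows of its length hold these motifs in 16% and 17% of promoters. AGAACA is in neither window and is in 13.3% and 15.6% of windows of these lengths. A match in letters is a description and not a binding site, and the absence of these letters from a short window says nothing of the receptor.

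*Aldoa* encodes the muscle aldolase, which splits fructose bisphosphate into triose phosphates. It had 185074, 120692, 192969 and 100025 expected counts, or 8916 CPM in lean GRf/f (8876 to 8957), 6066 in lean GRmKO (6032 to 6099.8), 9207 in ob/ob GRf/f (9166 to 9248) and 4775 in ob/ob GRmKO muscle (4745 to 4804). Both GRmKO libraries were below both GRf/f libraries. The log2 difference was -0.56 (-0.57 to -0.55) in lean muscle, just short of 1.5-fold at 1.47-fold, and -0.95 (-0.96 to -0.94) in ob/ob muscle. Relative to the median gene it was -0.60 in lean muscle, which is past 1.5-fold, and -0.91 in ob/ob muscle. *Tpi1*, the next enzyme, which interconverts the triose phosphates, had 2156, 2115, 1931 and 1847 CPM and log2 differences of -0.03 and -0.06.

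*Aldoa* lies on chr7:126795234-126800751 of GRCm38 (minus strand), has 8 annotated transcripts and 3 RefSeq start sites, and overlaps *Fam57b* on the other strand. The listed transcript starts at 126800447. If the row holds only that transcript, less *Aldoa* RNA in all and a shift between its transcripts cannot be told apart, and this was not tested. The 250 bases before the start of the listed transcript, chr7:126800448-126800697, are shown because *Aldoa* is the most abundant of the listed genes that passed the rule.
Aldoa: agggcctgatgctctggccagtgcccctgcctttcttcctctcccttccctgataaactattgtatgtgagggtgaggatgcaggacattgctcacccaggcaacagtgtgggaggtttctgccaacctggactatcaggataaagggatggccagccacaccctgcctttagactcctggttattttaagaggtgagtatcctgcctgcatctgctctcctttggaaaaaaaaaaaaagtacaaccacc
None of the motifs above is in this window. Windows of this length hold AGAACA in 16.1%, ACGTG in 16.6% and TGACG in 17.8% of promoters.

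**Figure D3:**
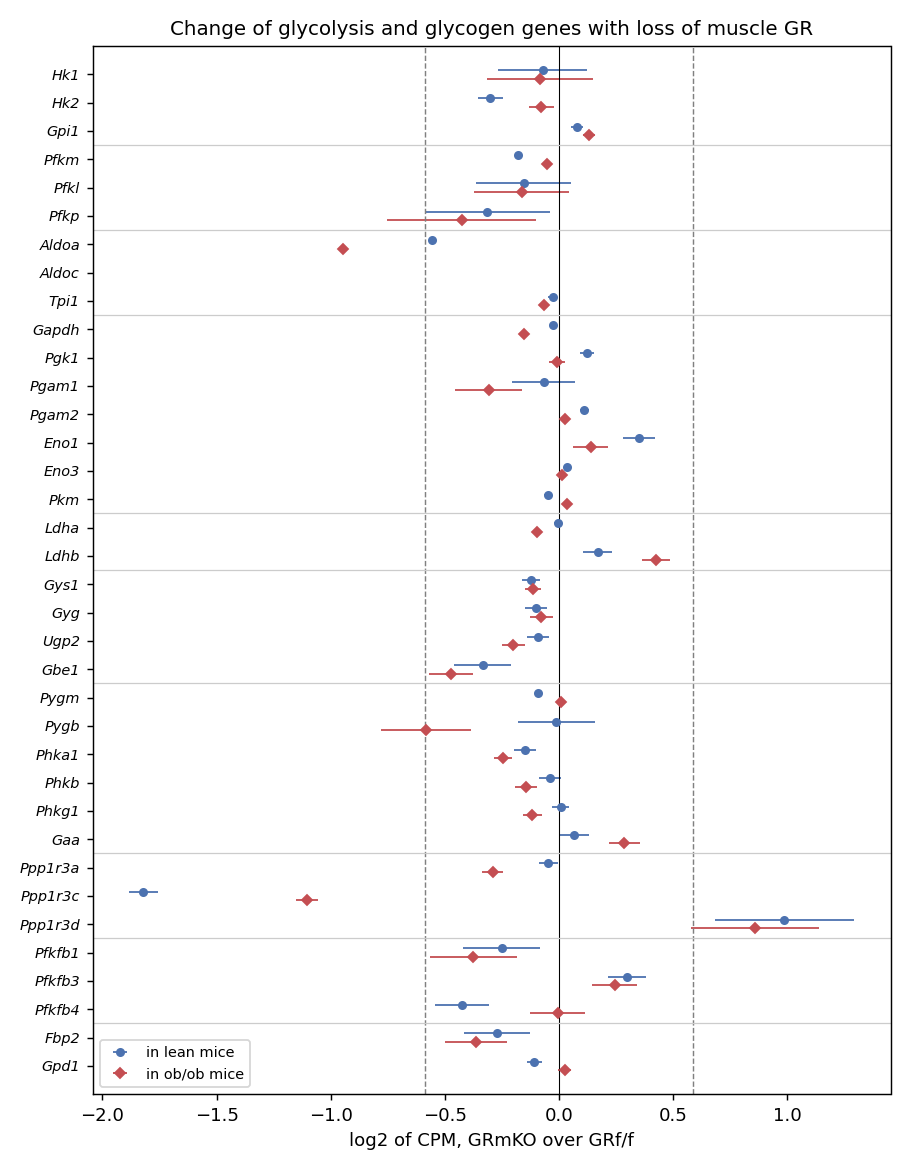
The log2 ratio of CPM in GRmKO over GRf/f muscle for each gene in lean (circles) and ob/ob (diamonds) mice, with 95% counting intervals as bars and dashed lines at 1.5-fold. *Aldoc* is not plotted because of its low counts. *Ppp1r3c* lies far left of the dashed line on both backgrounds and *Ppp1r3d* right of it, while *Aldoa* passes the line in ob/ob mice.

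No other listed gene reached 1.5-fold between the genotypes. The entry enzyme *Gpi1* (glucose phosphate isomerase, 1092, 1153, 1072 and 1175 CPM) had log2 differences of 0.08 (0.05 to 0.11) in lean and 0.13 (0.11 to 0.16) in ob/ob muscle. *Hk2* was at -0.30 and -0.08, and *Hk1* at -0.07 and -0.08. The phosphofructokinases, which commit glucose to glycolysis, were all below 0 in both comparisons. *Pfkm* (2950.0, 2609, 2572 and 2483 CPM) was at -0.18 (-0.19 to -0.16) and -0.05 (-0.07 to -0.03), and *Pfkl* (17.4 to 20.04 CPM) at -0.15 and -0.16. *Pfkp*, which overlaps *Pitrm1* on the other strand, had 258, 199, 187 and 139 counts and was at -0.31 (-0.59 to -0.04) and -0.43 (-0.75 to -0.10).

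None of the 7 genes of lower glycolysis differed 1.5-fold between the genotypes. Their medians were 0.04 in lean and 0.01 in ob/ob muscle, and their summed level was 17732, 17854, 17829 and 16930.3 CPM. *Gapdh* (9338, 9174, 10072 and 9062 CPM) had log2 differences of -0.03 (-0.03 to -0.02) and -0.15 (-0.16 to -0.14). Its processed copies *Gm10358* and *Gm3839* had 41 to 80 and 43 to 64 counts, against 193829, 182547, 211106 and 189837 for *Gapdh*. *Eno1* was highest of the 7 in lean muscle at 0.35, and *Pgam1* lowest in ob/ob muscle at -0.31. *Pgk1* (phosphoglycerate kinase, 0.12 and -0.01), *Pgam2* (0.11 and 0.02), *Eno3* (0.04 and 0.01) and *Pkm* (pyruvate kinase, -0.05 and 0.04) lay near 0. *Ldha* (2504, 2499, 2485 and 2326 CPM) was at -0.0025 (-0.02 to 0.02) and -0.10 (-0.11 to -0.08), and *Ldhb* (182, 205, 173 and 233 CPM) at 0.17 (0.11 to 0.23) and 0.42 (0.36 to 0.49).

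The glycogen synthesis genes were all 4 below 0 in both comparisons, none by 1.5-fold. *Gys1*, the muscle glycogen synthase and the enzyme that phosphatase 1 activates, was 524, 482, 627 and 579 CPM, with log2 differences of -0.12 (-0.16 to -0.08) and -0.11 (-0.15 to -0.08). *Gbe1*, the branching enzyme, was at -0.33 (-0.46 to -0.21) and -0.47 (-0.57 to -0.38). *Gyg*, glycogenin, which starts the glycogen particle, was at -0.10 and -0.08, and *Ugp2*, which makes UDP-glucose, at -0.09 and -0.20.

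Of the 6 breakdown genes none differed 1.5-fold. *Pygm*, 9523, 8946, 8527 and 8575 CPM, was at -0.09 (-0.10 to -0.08) and 0.01 (-0.0013 to 0.02). *Pygb*, 28.4, 28.1, 25.6 and 17.1 CPM, was at -0.01 (-0.18 to 0.16) in lean and -0.58 (-0.78 to -0.39) in ob/ob muscle, just short of the rule. The phosphorylase kinase subunits *Phka1*, *Phkb* and *Phkg1*, which switch phosphorylase on, lay at -0.15, -0.04 and 0.01 in lean and -0.24, -0.14 and -0.12 in ob/ob muscle. *Gaa*, the lysosomal glucosidase, was at 0.07 and 0.29.

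The enzymes that make and remove fructose-2,6-bisphosphate, the activator of phosphofructokinase, split. *Pfkfb3*, the most abundant of the 3 at 101, 124, 74.8 and 88.5 CPM, was at 0.30 (0.21 to 0.38) and 0.24 (0.15 to 0.34). *Pfkfb1* was at -0.25 and -0.38, and *Pfkfb4* at -0.43 and -0.01. *Fbp2*, the muscle fructose bisphosphatase, was at -0.27 and -0.36. *Gpd1*, which turns a triose phosphate into glycerol phosphate, was 847, 786, 913 and 928 CPM, at -0.11 (-0.14 to -0.08) and 0.02 (-0.0042 to 0.05).

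ob/ob against lean muscle asks what differs with leptin deficiency and obesity. *Gbe1*, the glycogen branching enzyme, was 1.68-fold higher in ob/ob GRf/f and 1.53-fold higher in ob/ob GRmKO than in lean muscle of the same genotype. *Ppp1r3c* was 1.85-fold higher in ob/ob than in lean GRmKO muscle, against 1.13-fold between the GRf/f libraries. In GRmKO muscle *Pygb* was 1.65-fold and *Pfkp* 1.51-fold lower. Each of 5 other scalings shifted all genes of a comparison by the same amount, and for obesity the shift was upward in both genotypes. The calls of higher genes therefore could not fail under them, while those of lower genes could. *Pfkp* fell short of 1.5-fold under all 5, and *Pygb* under 4.

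In GRf/f muscle 1 of the 35 genes was higher (2.86%) and 0 were lower, against 5.35% higher and 12.2% lower of 11375 genes compared. In GRmKO muscle 2 were higher and 2 lower (5.71% each), against 5.07% higher and 20.7% lower of 11405 genes. On this scale the median of all genes was itself shifted, by -0.11 in GRf/f and -0.21 in GRmKO muscle (log2). With TMM factors 7.79% of all genes were higher and 8.75% lower in GRf/f muscle, and 9.85% and 12.5% in GRmKO muscle. Of the listed genes, 2 (*Gbe1* and *Phka1*) were then higher and 0 lower in GRf/f muscle, and 3 (*Gbe1*, *Ppp1r3c* and *Phka1*) were higher and 0 lower in GRmKO muscle. Among the 2091 genes of at least 1000 counts throughout, 3.20% were higher and 6.89% lower in GRf/f muscle and 5.31% and 10.7% in GRmKO muscle. The 26 listed genes at that depth held 0 and 0 in GRf/f muscle and 1 and 0 in GRmKO muscle.

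The median log2 difference of the 35 genes was -0.07 in both genotypes, with 24 and 23 below 0. Relative to the median gene it was 0.04 in GRf/f and 0.14 in GRmKO muscle, so the sign of the list's median turned with the scaling. Slow-fibre markers moved with obesity in the same libraries. All 8 were at least 1.5-fold higher in ob/ob muscle in both genotypes, and the sum of the list was 488, 650.5, 1086 and 1554 CPM. *Myh2* and *Myh1* were both higher too, the type IIb marker *Myh4* was higher by the rule in GRmKO muscle (0.86, against 0.31 in GRf/f muscle), and all 5 erythroid and 3 of 6 adipocyte markers were lower in both genotypes. In GRmKO muscle, the comparison in which *Pygb* and *Pfkp* were lower, all 4 macrophage markers (median -1.48), all 4 endothelial markers (median -0.71) and 3 of 4 fibroblast markers were lower by the rule too. In GRf/f muscle 1 macrophage, 0 endothelial and 0 fibroblast markers were lower. The fibroblast marker *Col1a1* went the other way and was higher by the rule in both genotypes, at 1.68 in GRf/f and 0.85 in GRmKO muscle. So was *Ttn* of the muscle markers, at 1.31 and 1.76. The endothelial markers summed to 397, 475, 316 and 286 CPM. The part of these in the values below was not tested.

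*Gbe1* lies on chr16:70313949-70569716 of GRCm38 on the plus strand and has 4 annotated transcripts. It had 1218, 926, 2068 and 1490 expected counts, or 58.7 CPM in lean GRf/f (55.5 to 62.1), 46.6 in lean GRmKO (43.6 to 49.6), 98.7 in ob/ob GRf/f (94.5 to 103) and 71.1 in ob/ob GRmKO muscle (67.6 to 74.8). Both ob/ob libraries were above both lean libraries, and on each background the GRmKO library was the lower. The log2 difference with obesity was 0.75 (0.65 to 0.85) in GRf/f and 0.61 (0.49 to 0.73) in GRmKO muscle, and 0.86 and 0.82 relative to the median gene. Its promoter is shown because it was the one listed gene that passed the rule in both genotypes, as the 250 bases before its start on chr16:70313699-70313948.
Gbe1: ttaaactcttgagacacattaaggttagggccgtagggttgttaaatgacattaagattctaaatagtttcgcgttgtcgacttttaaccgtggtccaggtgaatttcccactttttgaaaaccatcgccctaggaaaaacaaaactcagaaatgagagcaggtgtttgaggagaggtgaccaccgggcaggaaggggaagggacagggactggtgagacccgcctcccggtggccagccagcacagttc
None of the motifs searched above is in this window either.

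The other synthesis genes were closer to 0. *Gys1* was at 0.26 (0.22 to 0.30) in GRf/f and 0.27 (0.23 to 0.31) in GRmKO muscle, above 0 in both. *Gyg* was at -0.05 and -0.03 and *Ugp2* at -0.08 and -0.18. *Gys1* and *Gbe1* thus lay above 0 and *Gyg* and *Ugp2* below it in both genotypes, while relative to the median gene *Gyg* was at 0.06 and 0.18 and *Ugp2* at 0.04 and 0.02.

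*Ppp1r3c* had a log2 difference with obesity of 0.17 (0.13 to 0.21) in GRf/f and 0.89 (0.82 to 0.96) in GRmKO muscle, or 0.29 and 1.10 relative to the median gene. The ob/ob GRmKO value of 245 CPM still lay below both GRf/f values. *Ppp1r3d* was at 0.25 (-0.08 to 0.59) and 0.12 (-0.12 to 0.36), and *Ppp1r3a* at -0.03 (-0.07 to 0.01) and -0.28 (-0.32 to -0.23).

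In glycogen breakdown, *Phka1*, the muscle alpha subunit of phosphorylase kinase, was 374, 337, 544 and 459 CPM. Its log2 difference of 0.54 (0.50 to 0.58) in GRf/f and 0.45 (0.40 to 0.49) in GRmKO muscle was just short of 1.5-fold in the first and was 0.65 and 0.65 relative to the median gene. The subunits *Phkb* (-0.06 and -0.17) and *Phkg1* (-0.20 and -0.32) were below 0 in both genotypes, while relative to the median gene *Phkb* was at 0.05 and 0.04 and *Phkg1* at -0.09 and -0.12. *Pygb* had 589, 560, 536 and 358 counts, and its log2 difference was -0.15 (-0.32 to 0.02) in GRf/f and -0.72 (-0.92 to -0.53) in GRmKO muscle. *Pygm* was at -0.16 (-0.17 to -0.15) and -0.06 (-0.07 to -0.05), and *Gaa* at -0.23 and -0.01.

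**Figure D4:**
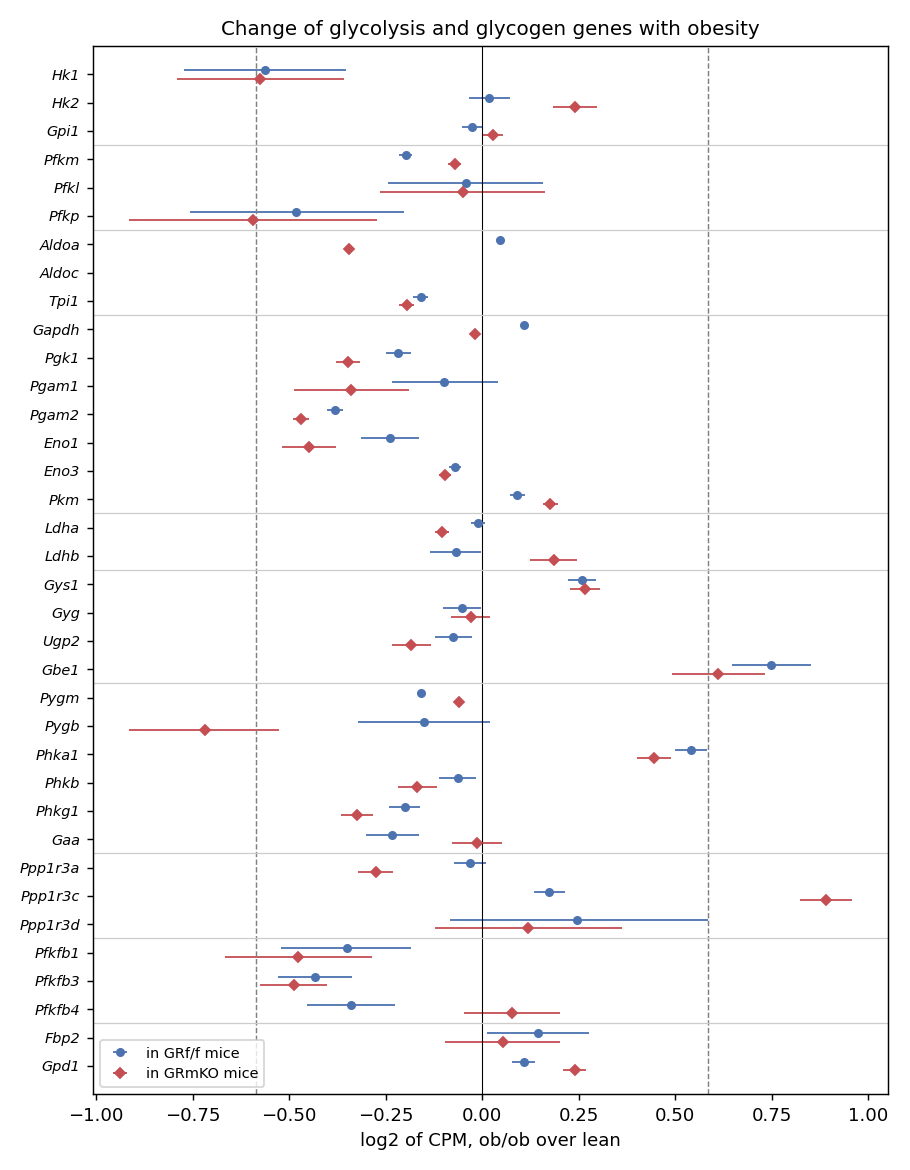
The log2 ratio of CPM in ob/ob over lean muscle for each gene in GRf/f (circles) and GRmKO (diamonds) mice, with 95% counting intervals as bars and dashed lines at 1.5-fold. *Aldoc* is not plotted because of its low counts. *Gbe1* lies right of the dashed line in both genotypes and *Ppp1r3c* only in GRmKO mice, and *Pfkp* and *Pygb* lie left of it in GRmKO mice.

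In glycolysis, *Hk1* was at -0.56 (-0.77 to -0.35) in GRf/f and -0.57 (-0.79 to -0.36) in GRmKO muscle, just short of 1.5-fold lower in both. *Hk2* was at 0.02 and 0.24, and *Gpi1* at -0.03 (-0.05 to 0.00020) and 0.03 (0.00099 to 0.05). The 3 phosphofructokinases were below 0 in both genotypes, but relative to the median gene *Pfkm* was at -0.08 and 0.14 and *Pfkl* at 0.07 and 0.16. *Pfkm* was at -0.20 (-0.21 to -0.18) and -0.07 (-0.09 to -0.05), *Pfkl* at -0.04 and -0.05, and *Pfkp*, 12.4, 10.01, 8.92 and 6.64 CPM, at -0.48 (-0.76 to -0.20) and -0.59 (-0.92 to -0.27). *Aldoa* was at 0.05 (0.04 to 0.06) in GRf/f and -0.35 (-0.36 to -0.33) in GRmKO muscle, and *Tpi1* at -0.16 and -0.20.

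Lower glycolysis held 0 genes past the rule, with medians of -0.10 in GRf/f and -0.34 in GRmKO muscle, or 0.02 and -0.13 relative to the median gene. *Pgam2*, 2104, 2272, 1615 and 1642 CPM, was at -0.38 and -0.47, both ob/ob libraries being below both lean ones. *Pgk1* (808, 879.7, 696 and 691 CPM) was also lower in both ob/ob than in both lean libraries, at -0.22 and -0.35. *Eno1* was at -0.24 and -0.45, *Pgam1* at -0.10 and -0.34, and *Eno3* at -0.07 and -0.10. *Pkm* was above 0 in both, at 0.09 and 0.18. *Gapdh* was at 0.11 (0.10 to 0.12) and -0.02 (-0.03 to -0.01), *Ldha* at -0.01 (-0.03 to 0.01) and -0.10 (-0.12 to -0.09), and *Ldhb* at -0.07 and 0.19.

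Of the regulators, *Pfkfb1* (-0.35 and -0.48) and *Pfkfb3* (-0.43 with interval -0.53 to -0.34, and -0.49 with -0.58 to -0.40) were below 0 in both genotypes, short of 1.5-fold. *Pfkfb4* was at -0.34 and 0.08. *Fbp2* (0.15 and 0.05) and *Gpd1* (0.11 with 0.08 to 0.14, and 0.24 with 0.21 to 0.27) were above 0 in both.

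A further 57 genes of the neighbouring steps were compared as far as their counts allowed, which was 46 to 48 of them. This list too was chosen with earlier results of these data known, which limits what its shares below can show. With GRmKO 1 was higher and 6 lower of 46 in lean muscle, where 5.59% of all genes were higher and 3.93% lower, and 4 were higher and 5 lower of 48 in ob/ob muscle, where the shares of all genes were 4.91% and 8.42%. With obesity 1 was higher and 5 lower of 47 in GRf/f muscle, against 5.35% and 12.2% of all genes, and 4 were higher and 5 lower of 47 in GRmKO muscle, against 5.07% and 20.7%. *Pcx*, *Pck1*, *Slc2a3*, *Slc16a3* and *Pdp1* were at least 1.5-fold lower in GRmKO muscle on both backgrounds, and *Adpgk* was lower in lean muscle only by this rule. The share of all genes lower on both backgrounds was not computed, so this overlap has no background to be set against.

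*Slc16a3*, the lactate exporter MCT4 of fast fibres, was 338, 213, 416 and 183 CPM. Its log2 difference was -0.67 (-0.72 to -0.61) in lean and -1.19 (-1.24 to -1.13) in ob/ob GRmKO muscle. *Slc2a3*, the glucose transporter GLUT3, had 158, 42, 121 and 23 counts and was at -1.84 (-2.38 to -1.35) and -2.38 (-3.11 to -1.74). The insulin-responsive transporter GLUT4, *Slc2a4*, was 778, 621, 669 and 492 CPM and below 0 in both, at -0.33 and -0.44, without reaching 1.5-fold. The pyruvate carrier gene *Mpc2* was at -0.64 with obesity in GRmKO muscle and fell short of 1.5-fold under each of the 5 other scalings.

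Of the 12 genes of pyruvate dehydrogenase and its control, those past the rule in any comparison were *Pdp1*, *Pdp2*, *Pdpr*, *Pdk1* and *Pdk4*. *Pdp1*, a phosphatase that switches the complex on, had 746, 221, 923 and 423 counts and was at -1.70 (-1.92 to -1.48) in lean and -1.13 (-1.29 to -0.96) in ob/ob GRmKO muscle. Its log2 difference with obesity was 0.29 in GRf/f and 0.86 in GRmKO muscle. *Pdk4*, a kinase that switches the complex off and a known target of glucocorticoids, was 402, 349, 173 and 372 CPM, with the ob/ob GRf/f library the lowest. It was at -1.21 (-1.27 to -1.16) with obesity in GRf/f and 0.09 in GRmKO muscle, and at -0.20 with GRmKO in lean and 1.10 (1.05 to 1.16) in ob/ob muscle. *Pdk1* and the regulatory subunit gene *Pdpr* were 1.51-fold and 1.56-fold higher with obesity in GRmKO muscle. In GRf/f muscle they were at 0.35 and 0.52, short of 1.5-fold, while with TMM factors *Pdpr* was at 0.62 there, past it. The phosphatase *Pdp2*, at 4.62 to 7.90 CPM, was at -0.78 with obesity in GRmKO muscle. That value stayed past 1.5-fold under 2 of the 5 other scalings.

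*Pck1*, phosphoenolpyruvate carboxykinase, had 1122, 574, 305 and 169 counts. It was lower by the rule in all 4 comparisons, at -1.90 and -1.84 with obesity and -0.91 and -0.85 with GRmKO. *Pcx*, pyruvate carboxylase, had 2322, 1083, 1441 and 770 counts and was at -1.04 and -0.90 with GRmKO. With obesity it was at -0.70 in GRf/f and -0.57 in GRmKO muscle, the latter just short of 1.5-fold. *Pck1* and *Pcx* are also strongly expressed in fat. All 6 adipocyte markers were below 0 with GRmKO on both backgrounds, 5 of them by the rule in lean and 4 in ob/ob muscle, and 3 were lower by the rule with obesity in each genotype. Their summed level was 982, 639, 503 and 312 CPM. With obesity the 6 markers differed widely in GRf/f and GRmKO muscle. *Cfd* was at -4.21 and -4.02, *Retn* at -1.16 and -1.03 and *Fabp4* at -0.65 and -0.82. *Plin1* (-0.53 and -0.49) and *Cidec* (-0.47 and -0.56) fell short of 1.5-fold, and *Adipoq* was at -0.02 and -0.12. The part of the adipocyte markers in the values of *Pck1* and *Pcx* was not tested. *Pck2*, the mitochondrial form, was at -0.67 and -0.85 with obesity. The first stayed past 1.5-fold under 2 of the 5 other scalings and the second under all 5.

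Further genes past the rule included some of low level. *Pfkfb2*, at 1.61 to 4.29 CPM, was at 0.81 and 0.74 with GRmKO and -0.60 and -0.67 with obesity. The values with GRmKO stayed past 1.5-fold under all 5 other scalings, but in ob/ob muscle each scaling raised the value, so it could not fail. Those with obesity stayed past it under 0 of 5 in GRf/f and 1 of 5 in GRmKO muscle. Its interval in GRf/f muscle with obesity, -1.27 to 0.06, spanned 0. *Adpgk*, a glucose kinase that uses ADP, was at -0.92 with GRmKO in lean muscle. *Slc25a13*, an aspartate-glutamate carrier, at 0.724 to 2.76 CPM, was at 1.77 (0.97 to 2.64) with GRmKO in ob/ob muscle. In lean muscle it was 0.724 CPM in GRf/f and 2.06 in GRmKO. The 15 and 41 counts behind these values were too few for the rule.

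Of the 14 other glycogen genes, 9 or 10 had enough counts in each comparison, and those past the rule in any were *Stbd1*, *Phka2* and *Ppp1r3f*. *Stbd1*, which binds glycogen to membranes, was 37.6, 52.3, 34.5 and 55.5 CPM and at 0.48 in lean and 0.69 (0.55 to 0.82) in ob/ob GRmKO muscle. *Phka2*, the liver alpha subunit of phosphorylase kinase, was at 0.68 with obesity in GRmKO muscle. In GRf/f muscle it was at 0.51, short of 1.5-fold, and at 0.62 with TMM factors, past it. *Ppp1r3f*, a further phosphatase 1 subunit at 1.56 to 3.04 CPM, was at 0.73 with obesity in GRf/f and 0.40 in GRmKO muscle. Phosphoglucomutase *Pgm1* (1245, 1123, 1021 and 841 CPM), the most abundant of this list, did not reach 1.5-fold.

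**Figure D5:**
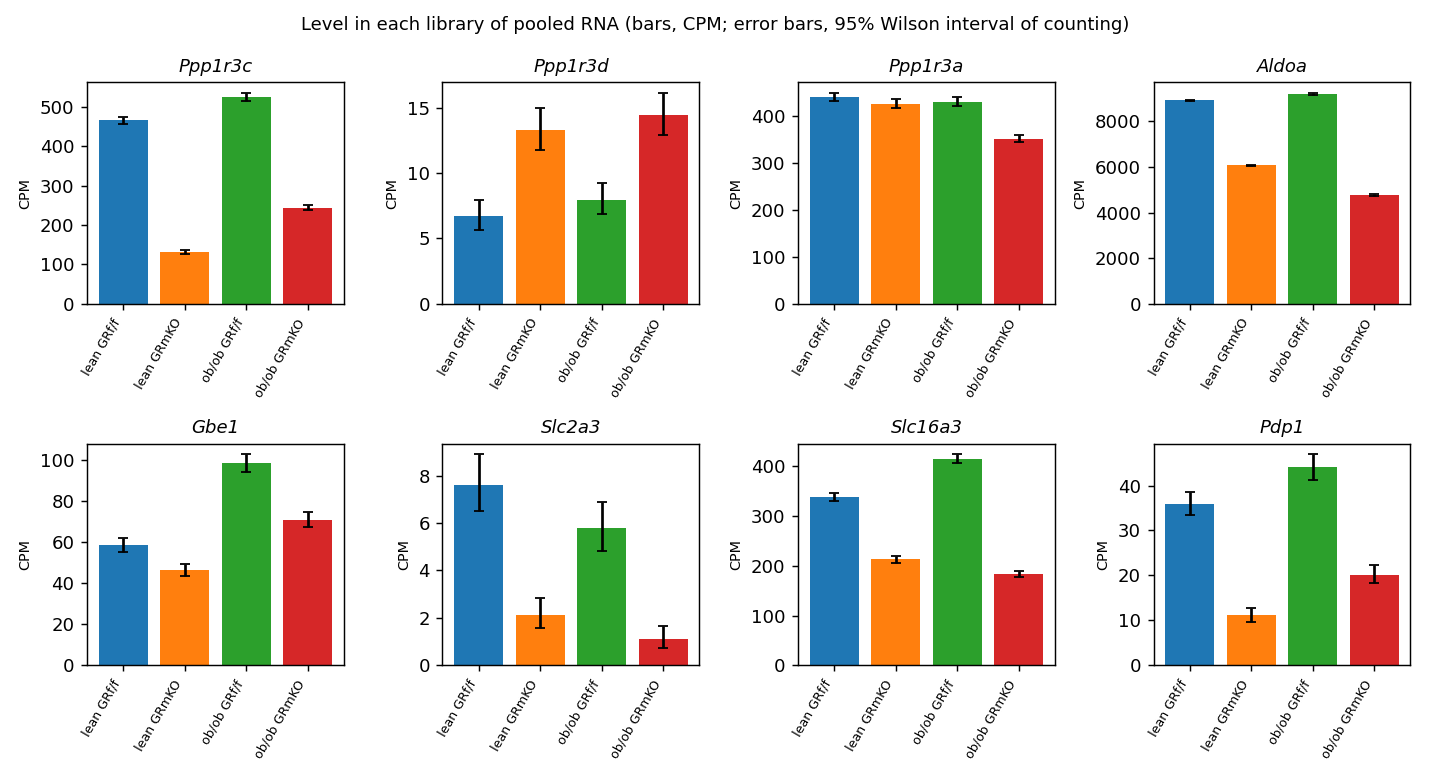
CPM of 5 of the 36 genes that passed 1.5-fold or stand beside them and of 3 neighbouring genes, 1 bar per library of pooled RNA, with 95% Wilson counting intervals as error bars and axes from 0. *Ppp1r3c*, *Aldoa*, *Slc2a3*, *Slc16a3* and *Pdp1* are lower in both GRmKO libraries than in both GRf/f libraries, *Ppp1r3d* is higher in them, and *Gbe1* is higher in both ob/ob libraries.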

How the data were processed

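Pooled RNA of gastrocnemius muscle from 3 mice per group was sequenced as 100-bp paired-end reads, 1 library for each of 4 groups. Per the study's methods and the submitters' processing notes, reads were quantified with Salmon 1.2.1 against protein-coding transcripts of mouse (GENCODE M20, mm10) and imported in R 3.5.0 with tximport as length-scaled TPM. Use of strand is not given in the sources used here. The values deposited by the authors are expected counts per gene name, not normalized between libraries. The study describes them as summed to genes, while each name carries 1 transcript ID, and whether a row is a gene or a transcript was not settled. Of duplicated names, the authors kept the entry with the largest total.

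From these counts, CPM over the whole library was computed. Genes above 0 in all 4 libraries with at least 50 counts in 1 library of a pair were compared, and 1.5-fold was the threshold. Wilson 95% intervals of CPM and exact Clopper-Pearson intervals of ratios came from the counts, rounded, with scipy 1.17.1 (Python 3.11.15, numpy 2.4.6, pandas 2.3.3). They cover counting error only. A count of 3 was 0.143 to 0.151 CPM. With 1 library per group there was no replicate, and no test was run. The study's NOISeq simulates replicates from single libraries and was not used. The calculation was checked on simulated counts that held counting error only. They held no variation between mice, so this says nothing of how far the calls would repeat.

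Alternatives were edgeR 4.0.16 TMM factors and DESeq2 1.42.0 size factors (R 4.3.3, rounded counts, scaling factors only), upper quartile scaling, library size without the 50 most abundant genes, centring on the median gene, a lower fold threshold (25% above equality) and a fold of 2, and other count minimums of 10 and 0. The genes and lists were chosen with earlier results of these data known. Every listed gene is named, with those past 1.5-fold and the most abundant of each role in full, and other pathway genes that passed 1.5-fold. Some genes of neighbouring steps are not reported here. Lengths and transcript numbers came from GENCODE M21 on GRCm38, and promoters from RefSeq on GRCm38.p6, found for 35 of the 36 genes. Figures were drawn with matplotlib 3.10.9.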

Additional observations from a re-analysis of the deposited data

Results flagged for a closer look

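In each result below, the change pointed in opposite directions in the 2 groups compared. Each group was 1 library, and none of these differences was tested.

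*Aldoa* with obesity was at 0.05 in GRf/f and -0.35 in GRmKO muscle on the log2 scale, a difference of -0.39, and at 0.16 and -0.14 relative to the median gene. *Slc16a3* with obesity was at 0.30 in GRf/f and -0.22 in GRmKO muscle, a difference of -0.52, while relative to the median gene the values were 0.41 and -0.013, the latter close to 0. *Pdk4* with obesity was at -1.21 in GRf/f and 0.09 in GRmKO muscle, a difference of 1.31, and at -1.10 and 0.30 relative to the median gene. The same 4 *Pdk4* values, read by genotype, gave -0.20 in lean and 1.10 in ob/ob muscle, again a difference of 1.31, and -0.25 and 1.14 relative to the median gene. *Gapdh* with obesity was at 0.11 in GRf/f and -0.02 in GRmKO muscle, a difference of -0.13, and relative to the median gene the values were 0.22 and 0.19, with the same sign.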

How the results depend on the processing

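No paired analysis was possible because the labels carry no replicate numbers and each group was 1 library, so no replicate could be left out either. Of the recomputed values of single genes, 241 moved beyond their counting interval and 399 did not. A change of sign past 1.5-fold was not possible, because each scaling shifted all genes of a comparison equally and by less than that. For ob/ob against lean GRf/f muscle, 2 listed genes were higher with TMM factors, DESeq2 size factors, upper quartile scaling, centring on the median gene and a lower fold threshold (25% above equality), and 0 at a fold of 2. At the lower fold, 6 were lower. The median of -0.07 became 0.037 with TMM factors, 0.048 with DESeq2 size factors, 0.010 with upper quartile scaling and 0.045 relative to the median gene. In GRmKO muscle, 0 were higher at a fold of 2, and 0 were lower with TMM factors, DESeq2 size factors, upper quartile scaling, centring and a fold of 2, 1 without the 50 most abundant genes and 11 at the lower fold. Its median became 0.13 with TMM factors, 0.14 with DESeq2 size factors, 0.070 with upper quartile scaling, 0.0096 without the 50 most abundant genes and 0.14 when centred.

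For GRmKO against GRf/f in lean muscle, 2 were higher at the lower fold and 0 at a fold of 2. With TMM factors, DESeq2 size factors and centring 2 were lower, *Aldoa* joining *Ppp1r3c*, and 4 were lower at the lower fold. The median was -0.12 with TMM factors. In ob/ob muscle, 2 were higher at the lower fold and 0 at a fold of 2, and 7 and 1 were lower. Restricting the list to the 7 genes with 1 annotated transcript was chosen after seeing the data. It left 0 higher with obesity in GRf/f muscle, 1 higher and 1 lower with a median of -0.28 in GRmKO muscle, and 1 lower with a median of -0.31 for GRmKO in ob/ob muscle. The shorter list tests fewer genes by construction. Depth limits *Aldoc*, at 10 counts or fewer, which could not be compared.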
